A study of Mus musculus with 99 samples.

Results

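The Dlx and Msx homeobox genes of mouse embryonic stem cells (ESCs) were followed across the RNA and chromatin libraries of a study on the catalytic activity of RING1B. The 8 genes, Dlx1 to Dlx6, Msx1 and Msx2, were chosen by name out of 55341 gene names in the count table, and peaks of 12 antibodies were assigned to a gene when at least 1 bp lay within 2.5 kb of the annotated gene body. RNA was counted in 16 libraries, 2 for each of 8 groups, and peaks were listed for 70 chromatin immunoprecipitation (ChIP) libraries and 4 inputs. Parental cells carry ROSA26::creERT2, lack RING1A in every group and hold floxed RING1B (RING1A-/-; RING1B fl/fl), so that 0.5 µM 4-hydroxytamoxifen (OHT) deletes the remaining paralogue, while −OHT cells received ethanol. RING1B WT and RING1B I53S cells are derivatives of this line that express FLAG-HA-tagged wild-type RING1B or the catalytically inactive I53S mutant from an integrated vector. They were selected as clones, as were the MTF2 knockout (MTF2 KO) derivatives of the 3 lines, and a clone can carry differences of its own. Eed fl/fl cells are a separate conditional line that loses the PRC2 subunit EED with OHT. The study's methods name more than one clone of it and the labels do not tie replicates to clones, so that its 2 replicates may be different clones. All lines were grown in serum with LIF and the inhibitors of GSK3β and MEK, and OHT lasted 72 h, except for MTF2 and JARID2 lists whose titles name 48 h.

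Dlx genes are the vertebrate relatives of Drosophila Distal-less and lie in convergently transcribed pairs. They pattern the pharyngeal arches, limb buds and ventral forebrain, where Dlx1, Dlx2, Dlx5 and Dlx6 direct the development of GABAergic interneurons, and Dlx3 and Dlx5 act in epidermis, teeth, placenta and bone. Msx1 and Msx2 encode related homeodomain repressors that respond to BMP signals in neural crest, teeth, limbs and skull. In ESCs such developmental regulators are kept nearly silent under the Polycomb complexes. PRC1, with RING1A or RING1B as its E3 ligase, deposits H2AK119ub1, and PRC2, built around EED and SUZ12, deposits H3K27me3. PCGF2 and CBX7 belong to canonical PRC1, in which CBX7 reads H3K27me3. PCGF6 and RYBP belong to variant PRC1. MTF2 and EPOP accompany PRC2 in a form distinct from that with JARID2 and AEBP2, and JARID2 binds H2AK119ub1.

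The 6 Dlx genes formed 3 linked pairs. Dlx1 (chr2:71528113-71533981, plus strand) and Dlx2 (chr2:71543408-71546754, minus strand) were separated by 9426 bp. Dlx3 (chr11:95120119-95125296, plus strand) and Dlx4 (chr11:95140447-95146263, minus strand) were 15150 bp apart, and Dlx6 (chr6:6863334-6868568, plus strand) and Dlx5 (chr6:6877805-6882085, minus strand) 9236 bp apart. Msx1 (chr5:37820485-37824583) and Msx2 (chr13:53466884-53473074), both on the minus strand, had no partner. Antisense transcripts shared 6.21% of the exon length of Dlx1 (Dlx1as), 2.42% of Dlx4 (Dlx4os) and 4.38% of Dlx6 (Dlx6os2), and the counting took no account of strand, so reads in these stretches cannot be assigned to one of the partners. Coordinates are those of mm10.

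The promoters of Dlx2 and Msx1 are shown because their bases before the start lie in no annotated transcript. That of Dlx2 held E-box matches. Peaks of all 12 antibodies lay over the promoter of Msx1 in Parental −OHT cells, against 11 for Dlx1 and 10 for Dlx2 and Msx2. The RefSeq promoter table (GRCm38.p6) held 4 of the 8 genes, Dlx1, Dlx2, Msx1 and Msx2, and Dlx3, Dlx4, Dlx5 and Dlx6 were not matched. The 250 bases before the start of Dlx2 (chr2:71546755-71547004, minus strand) and of Msx1 (chr5:37824586-37824835, minus strand) are given 5′ to 3′ with each CpG in capitals.
Dlx2: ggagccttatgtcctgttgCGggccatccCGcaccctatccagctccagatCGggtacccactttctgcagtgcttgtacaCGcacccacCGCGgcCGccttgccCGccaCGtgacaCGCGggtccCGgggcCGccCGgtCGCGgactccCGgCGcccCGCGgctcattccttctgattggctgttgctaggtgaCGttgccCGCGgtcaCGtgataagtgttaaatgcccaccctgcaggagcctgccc
Msx1: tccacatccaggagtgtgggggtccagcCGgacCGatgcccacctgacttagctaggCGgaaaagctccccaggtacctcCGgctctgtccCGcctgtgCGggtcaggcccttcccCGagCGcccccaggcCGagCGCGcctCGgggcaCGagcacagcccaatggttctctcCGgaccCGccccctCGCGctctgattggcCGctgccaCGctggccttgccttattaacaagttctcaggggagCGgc
Over the full window of 250 bases before to 50 bases after the start, Dlx1 held 27 CpG dinucleotides, Dlx2 29, Msx1 29 and Msx2 22, against a median of 7 over 32851 promoters of the same length. All 4 windows are therefore richer in CpG than the median promoter, and the ratio of observed to expected CpG ranged from 0.77 for Dlx1 to 0.90 for Dlx2. The E-box CACGTG, the motif of the MGA/MAX dimer found in the PCGF6 complex, was searched on both strands and occurred 2 times in the Dlx2 promoter, beginning 142 and 42 bases before the start (both matches overlap CpG capitals), and in none of the other 3. It was present in 7.2% of all promoters. The E2F6 motif GCGGGAA had no match on either strand in the 4 windows and was present in 4.6% of all promoters.

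Library totals ran from 8140106 to 12743460 counts in the 12 libraries of the Parental line and its RING1B derivatives and from 6957248 to 9443814 in the 4 Eed fl/fl libraries. Levels are given as CPM, counts scaled to the TMM-adjusted library size. The gene that encodes RING1B, Rnf2, averaged 227.7 ± 41.6 CPM (SD, n = 2) in −OHT and 155.4 ± 16.1 in +OHT Parental cells, and this count holds exons outside the floxed part and, in the derivatives, reads of the transgene, so that it is a weak check of the deletion. RING1B peaks went from 5073 to 690 in the same cells. Eed averaged 214.1 ± 58.3 CPM in −OHT and 55.4 ± 16.5 CPM in +OHT Eed fl/fl cells, without overlap. The 8 ESC markers read were present in every group, with summed CPM of 5234 to 6369 in Parental −OHT cells and 3244 to 3328 in Parental +OHT cells. The labels do not say that the 2 replicates of a group came from separate cultures, so p-values measure the spread between these samples only, and in bulk RNA fewer cells that express a gene and less RNA per cell cannot be told apart.

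Without OHT the Dlx and Msx genes were close to the detection limit of these libraries. In the 6 −OHT libraries of the Parental line and its RING1B derivatives, Dlx1 had 0 to 2 counts, Dlx2 0 to 6, Dlx5 0 to 3, Dlx6 1 to 3, Msx1 1 to 6, Dlx4 4 to 8, Dlx3 0 to 26 and Msx2 15 to 30. Msx2 was the member read most steadily, at 1.44 to 2.32 CPM, whereas Dlx3 ranged from 0 to 2.12 CPM. A gene was called when its absolute log2 fold change reached 1.5 at a Benjamini-Hochberg false discovery rate (FDR) under 0.05 over all genes in the quasi-likelihood test of edgeR, and 18154 genes passed the filter on low counts in these 12 libraries. All 8 members passed. None of the 8 was called between RING1B I53S and Parental −OHT cells (0.154% of all genes tested called in either direction) or between RING1B WT and Parental −OHT cells (0.0606%). With so few reads the intervals were wide, for example −2.46 to 6.81 on the log2 scale for Dlx1 between RING1B I53S and Parental −OHT cells, so differences at this level were not detectable rather than absent. At an unadjusted p under 0.05 these 2 comparisons gave 0 and 1 of 8, against 947 and 825 of 18154 genes. The 1 gene was Dlx3 (log2 fold change −1.52, 95% interval −3.01 to −0.03), and DESeq2 called none of the 8.

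**Figure D1:**
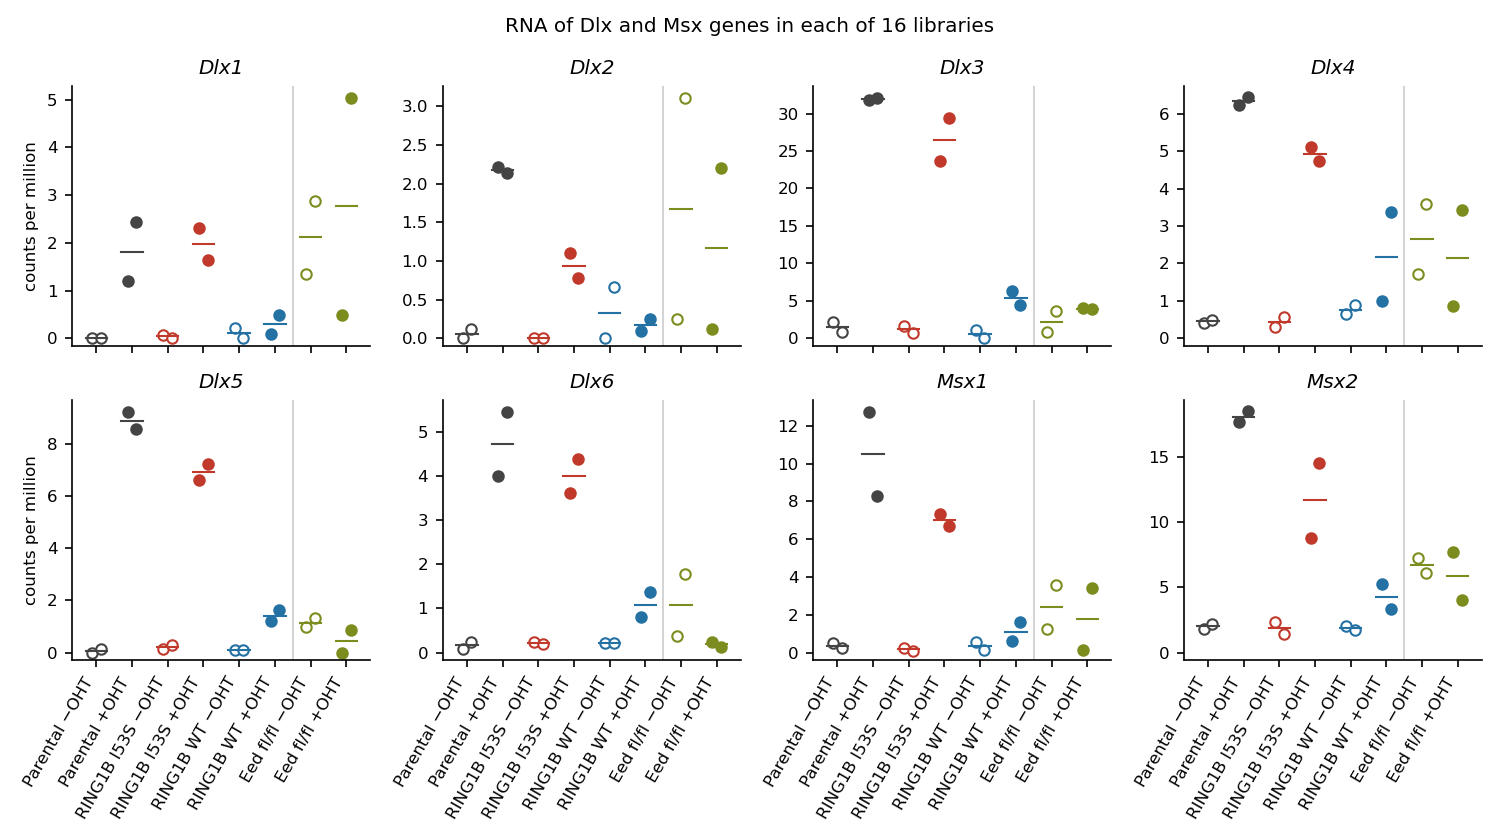
RNA of each of the 8 genes in all 16 libraries, in CPM (linear axes that differ between panels), with 1 point for each library and a bar for the group mean (n = 2); open points are −OHT and filled points +OHT, and the grey line sets apart the Eed fl/fl libraries, which were scaled and fitted on their own. Parental and RING1B I53S +OHT libraries lie above all other libraries of these 3 lines for every gene, as for Dlx3 at 31.9 and 32.1 CPM and at 23.7 and 29.4 CPM against at most 6.34 CPM in RING1B WT +OHT cells.

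All 8 Dlx and Msx genes rose on deletion of RING1B. In Parental cells OHT increased each of them past the threshold, with a median log2 fold change of 4.80 against a median of 0.03 over all genes, while 15.1% of all genes tested were called higher. Dlx1 had no count without OHT, and with this gene set at its lower bound the median was 4.53. In RING1B I53S cells, which keep a RING1B protein without catalytic activity, OHT also increased all 8, with a median of 4.68 (4.29 with Dlx2, the gene with no count there, at its bound), against 12.8% of all genes called higher. No library of the +OHT group overlapped one of the −OHT group for any member in either line. The share of all genes that separate in this way was not computed for any comparison. An unadjusted p under 0.05 was reached by 7897 of 18154 genes in Parental and 6844 in RING1B I53S cells.

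Dlx5 and Dlx6 encode activators of branchial arch, forebrain and bone development. Dlx5 had 0 and 1 counts in Parental −OHT cells and 108 and 88 counts in Parental +OHT cells (9.22 and 8.58 CPM), a log2 fold change of 7.17 (SE 0.71, FDR 3.99e-07). This is a sharp separation, but because it starts from 1 count in all, the ratio of summed counts, 181.7-fold, had a counting interval of 32.2 to 7212. Dlx5 went from 2 and 3 counts in RING1B I53S −OHT cells to 66 and 84 with OHT (log2 fold change 4.93, SE 0.56, FDR 3.81e-06). Dlx6 had 1 and 2 counts in Parental −OHT cells against 47 and 56 in +OHT cells, and its log2 fold change was 4.87 (SE 0.68, FDR 2.1e-05). It had 3 and 2 counts in RING1B I53S cells against 36 and 51 (log2 fold change 4.15, SE 0.63, FDR 7.07e-05). Both members of the pair thus rose in both lines, and over the 12 libraries their log2 CPM had the closest correlation of any pair of members (Pearson r = 0.9918, given as a description, since the libraries share the OHT contrast).

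Dlx1 and Dlx2, which drive interneuron differentiation in the ventral forebrain, stayed the lowest members of the family per exon length in +OHT cells of these lines. Dlx1 was not read in Parental −OHT cells (0 and 0 counts) and had 14 and 25 counts in +OHT cells. Its level was at least 12-fold higher with OHT when the 2 −OHT libraries together were set to 3 counts (fitted log2 fold change 7.23, SE 1.5, FDR 0.00104), a floor for counting error only. Dlx1 had 1 and 0 counts in RING1B I53S cells against 23 and 19 (log2 fold change 5.18, SE 1.12, FDR 0.00193). Its groups did not overlap in either line. Dlx2 had 0 and 1 counts in Parental −OHT cells and 26 and 22 in +OHT cells (log2 fold change 5.14, SE 1.19, FDR 0.00245). In RING1B I53S cells it went from 0 and 0 to 11 and 9 counts, at least 7.22-fold higher (fitted log2 fold change 6.29, SE 1.64, FDR 0.00772). The 2 genes were called in both lines with the largest standard errors of the 8.

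Dlx3, a regulator of epidermal and placental differentiation, became the most abundant member. It had 26 and 7 counts in Parental −OHT cells and 373 and 329 counts in +OHT cells (31.9 and 32.1 CPM), a log2 fold change of 4.33 (SE 0.48, FDR 1.61e-06). Its counts in RING1B I53S cells were 22 and 7 against 236 and 341 (log2 fold change 4.43, SE 0.49, FDR 2.81e-06). Its neighbour Dlx4 had 5 and 4 counts against 73 and 66 in Parental cells (log2 fold change 3.8, SE 0.59, FDR 6.23e-05). Dlx4 had 4 and 6 counts against 51 and 55 in RING1B I53S cells (log2 fold change 3.47, SE 0.58, FDR 0.000192). In both lines the lowest +OHT library of each gene lay far above the highest −OHT library.

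Msx1 and Msx2, the BMP-responsive repressors, rose as well. Msx1 had 6 and 2 counts in Parental −OHT cells and 149 and 85 in +OHT cells (log2 fold change 4.72, SE 0.58, FDR 4.9e-06). In RING1B I53S cells it had 3 and 1 counts against 73 and 78 (log2 fold change 5.27, SE 0.65, FDR 8.8e-06). Of the 8 genes, Msx2 showed the smallest change in both lines. It had 22 and 18 counts against 207 and 190 in Parental cells (log2 fold change 3.18, SE 0.38, FDR 3.29e-06) and 30 and 15 counts against 88 and 169 in RING1B I53S cells (log2 fold change 2.62, SE 0.37, FDR 3.6e-05). The 2 RING1B I53S +OHT libraries differed by 8.83 and 14.6 CPM for Msx2, a wider gap than the 17.7 and 18.5 CPM of the Parental +OHT libraries.

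Fewer of the genes were called in cells with wild-type RING1B. In RING1B WT cells 2 of the 8 were called higher with OHT, Dlx3 and Dlx5, against 1.34% of all genes, and the median log2 fold change of the 8 was 1.59. Dlx3 went from 10 and 0 counts to 63 and 36 (log2 fold change 3.30, SE 0.62, FDR 0.00718), and Dlx5 from 1 and 1 counts to 12 and 13 (log2 fold change 3.55, SE 0.78, FDR 0.0196). Both therefore changed with OHT also where RING1B was supplied, from a low start to a level well under that of Parental +OHT cells. The other 6 did not pass. Dlx6 (2.24), Msx1 (1.70), Dlx4 (1.48) and Msx2 (1.19) had positive log2 fold changes with non-overlapping groups and unadjusted p under 0.05, at FDR 0.124 to 0.26. Over all genes, 2875 of 18154 had an unadjusted p under 0.05 in this line. The share of all genes without overlap was not computed, and 2 libraries per group separate easily. Dlx1 (1.30, 95% interval −1.49 to 4.09) and Dlx2 (−0.91, 95% interval −3.56 to 1.74) rested on 1 and 4 and on 1 and 2 counts in the +OHT libraries. The 2 calls depended on single libraries, with 0 called without RING1B WT −OHT replicate 2 and 1 called without RING1B WT −OHT replicate 1 or RING1B WT +OHT replicate 2.

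Set side by side with OHT, RING1B WT cells had less RNA of all 8 genes than Parental cells, with log2 fold changes from −1.56 (Dlx4) to −3.60 (Dlx2) and FDR from 0.000239 (Msx1) to 0.0481 (Dlx1), against 7.62% of all genes called lower. The groups did not overlap for any member, though the share over all genes was not computed. Dlx4, the closest, had 1.01 and 3.36 CPM in RING1B WT and 6.23 and 6.43 CPM in Parental +OHT cells. DESeq2 called 7 of the 8. With 1 library left out the calls fell to 4 (without RING1B WT +OHT replicate 1 or Parental +OHT replicate 2), 5 (without Parental +OHT replicate 1) or 6 (without RING1B WT +OHT replicate 2). RING1B I53S cells exceeded RING1B WT cells with OHT for 5 of 8 called genes, Dlx1 (log2 fold change 2.74, SE 0.89, FDR 0.0478), Dlx3 (2.28, SE 0.42, FDR 0.00156), Dlx5 (2.30, SE 0.45, FDR 0.00229), Dlx6 (1.89, SE 0.52, FDR 0.0206) and Msx1 (2.69, SE 0.52, FDR 0.00205), against 6.02% of all genes called higher. Msx2 met the FDR (0.00987) at a log2 fold change of 1.43, under the fold threshold. Dlx2 (2.39, FDR 0.152) and Dlx4 (1.2, FDR 0.111) missed the FDR. Their libraries did not overlap either, which 2 libraries per group reach easily. DESeq2 and the fit of these 2 groups alone each called 4. When RING1B WT +OHT replicate 1 was left out, the number called was 2, and when RING1B I53S +OHT replicate 2 was left out, it was 3.

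Between RING1B I53S and Parental +OHT cells none of the 8 was called, against 0.16% of all genes called in either direction, and DESeq2 called none as well. The log2 fold change was negative for 7 of 8, from −0.24 for Dlx6 to −1.21 for Dlx2, and the median was −0.36. No p of the 8 was under 0.05 unadjusted, against 901 of 18154 genes. The lowest was that of Msx2 (0.064), with a 95% interval of −1.29 to 0.04. The intervals of Dlx3 (−1.05 to 0.52) and Dlx5 (−1.16 to 0.43) were the narrowest after that of Msx2, and those of Dlx1 (−1.33 to 1.57) and Dlx2 (−2.83 to 0.40) the widest. The libraries did not overlap for 6 of the 8 (Dlx2, Dlx3, Dlx4, Dlx5, Msx1 and Msx2), each lower in RING1B I53S cells. The share of all genes without overlap was not computed, and 2 libraries per group separate easily, so this count does not show a difference. The intervals leave room for one, so the missed threshold does not show that the levels were alike.

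The OHT effects of the lines were also compared directly. The difference between RING1B I53S and Parental cells was called for none of the 8 and for 0% of all genes. At an unadjusted p under 0.05 there were 0 of 8, against 488 of 18154 genes. This difference was −2.24 for Dlx5 (95% interval −4.78 to 0.30) and 0.09 for Dlx3 (−1.33 to 1.51). The difference between RING1B WT and Parental cells was negative for all 8, from −1.03 (Dlx3) to −6.05 (Dlx2). None was called at the FDR, against 1.1% of all genes called lower, and Msx2 came closest (−1.99, SE 0.55, FDR 0.0681). At an unadjusted p under 0.05 there were 7 of 8, against 2586 of 18154 genes in either direction. Dlx3 was the exception (95% interval −2.91 to 0.85). DESeq2 called 1 of the 8 in this comparison. The comparisons with Parental −OHT and +OHT cells share those libraries.

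**Figure D2:**
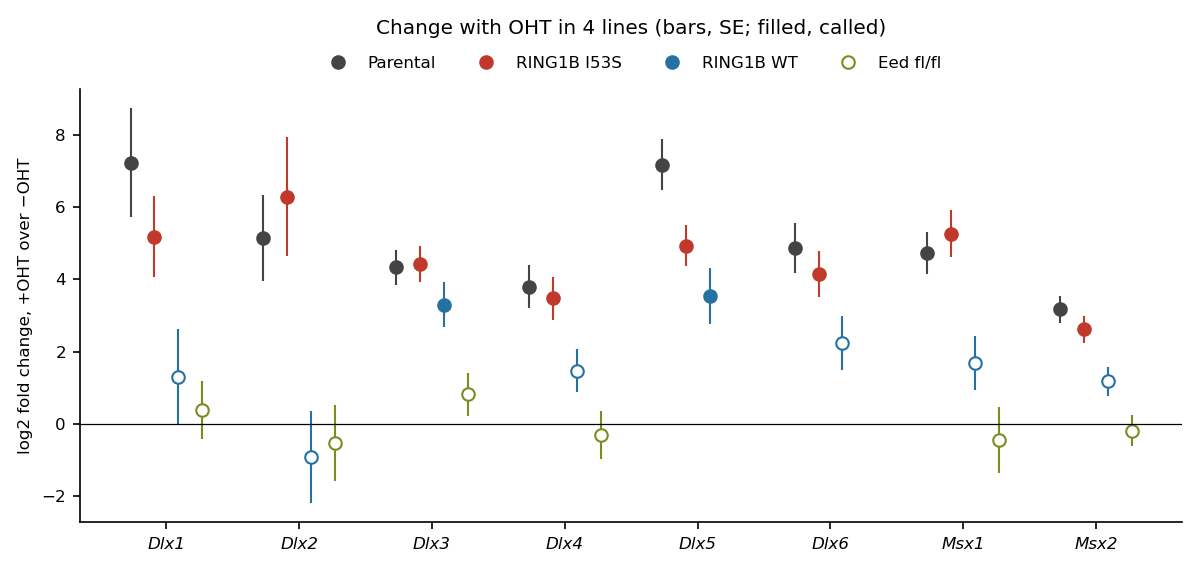
Log2 fold change of +OHT over −OHT cells for each gene in the Parental, RING1B I53S, RING1B WT and Eed fl/fl lines, from the edgeR fits (2 libraries per group), with bars of 1 SE and filled points for genes called; Dlx5 and Dlx6 have no Eed fl/fl point because they did not pass the filter there. All 8 points are filled in Parental (3.18 to 7.23) and RING1B I53S cells (2.62 to 6.29), 2 in RING1B WT cells and none in Eed fl/fl cells.

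Levels of different genes can be compared only per length, here as CPM per kb of the union of exons. In Parental +OHT cells the order was Dlx3 (12.3 ± 0.06, SD, n = 2), Msx2 (5.52 ± 0.18), Dlx5 (3.93 ± 0.20), Msx1 (3.39 ± 1.01), Dlx6 (1.99 ± 0.43), Dlx4 (1.94 ± 0.04), Dlx2 (0.764 ± 0.019) and Dlx1 (0.337 ± 0.163). Dlx3 stood apart from the rest, whereas Dlx5 and Msx1, and Dlx6 and Dlx4, were not separated beyond their spread, and Dlx4 and Dlx6 changed places when the longest transcript gave the length. RING1B I53S +OHT cells also had Dlx3 (10.2 ± 1.5) first, followed by Msx2 (3.56 ± 1.23) and Dlx5 (3.06 ± 0.19), which overlapped. RING1B WT +OHT cells had Dlx3 at 2.08 ± 0.50 and Msx2 at 1.31 ± 0.40 CPM per kb, and the next, Dlx4, at 0.668 ± 0.510.

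None of the genes was called on deletion of Eed. In Eed fl/fl cells 6 of the 8 genes passed the filter among 25170 genes, 0 were called with OHT, against 0.00795% of all genes called higher, and the lowest FDR of the 6 was 0.838. At an unadjusted p under 0.05 there were 0 of 6, against 1372 of 25170 genes, and DESeq2 called none of the members. The deleted gene itself was not called in this fit either (Eed, log2 fold change −1.95, SE 0.32, FDR 0.0766), so 0 calls do not show that the members were unchanged. Dlx3 had 7 and 30 counts without OHT and 32 and 32 with OHT (log2 fold change 0.82, 95% interval −0.49 to 2.14). Msx2 had 59 and 51 counts against 62 and 33 (log2 fold change −0.18, 95% interval −1.12 to 0.75), an upper bound below the increase of 3.18 measured for this gene in Parental cells. Replicates were uneven: replicate 2 held more reads than replicate 1 in both groups for Dlx1 (11 and 24 against 4 and 41), Dlx2 (2 and 26 against 1 and 18), Dlx4 (14 and 30 against 7 and 28) and Msx1 (10 and 30 against 1 and 28). Dlx5 (8 and 11 against 0 and 7 counts) and Dlx6 (3 and 15 against 2 and 1) were not tested and were lower with OHT in counts. Their groups did not overlap, which 2 libraries per group reach easily. The Eed fl/fl libraries detected 43762 to 46757 genes, against 23578 to 28032 in the other 12 libraries, and without OHT they already held 1.36 and 2.87 CPM of Dlx1 and 7.28 and 6.10 CPM of Msx2. These levels were scaled apart from those of the other lines. The part of the uneven replicates and of the broader detection in these values was not tested.

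Beside the 8 genes, transcripts of the same loci and the same pathways were read from lists. Of the 5 overlapping or related transcripts, 2 passed the filter and both were called higher in Parental and in RING1B I53S cells: Msx3, the third Msx paralogue (log2 fold change 5.14 in Parental cells, SE 0.59), and Dlx4os (3.05, SE 0.79). Dlx1as, Dlx6os1 and Dlx6os2 were not tested. Of 8 neighbouring protein coding genes tested, 1 was called higher, Itga3, 43317 bp from the Dlx3/Dlx4 pair (1.85 in Parental and 2.06 in RING1B I53S cells), and the median of the 8 was 0.03. Metap1d, 2918 bp from Dlx1, had a log2 fold change of −0.29 (SE 0.21) and Sdhaf3, on the side of Dlx5, 0.06 (SE 0.18). Neither passed the test.

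Neural crest and pharyngeal arch factors, the set in which Dlx and Msx genes act, included 20 of 22 tested genes called higher in Parental cells (median 5.23), 17 in RING1B I53S and 5 in RING1B WT cells. Over all genes tested 15.1%, 12.8% and 1.34% were called higher in these lines, which is the background of every list count given here. The 3 with the lowest FDR were Hand1 (log2 fold change 6.33, SE 0.46), Pax3 (5.82, SE 0.45) and Pitx1 (7.41, SE 0.64). Hand1 also counts among trophoblast markers. Foxd3, an early crest factor that ESCs express, was the sole member called lower in RING1B I53S cells (−2.08). Of ventral forebrain and GABAergic genes 9 of 13 were called higher in Parental and 9 in RING1B I53S cells and 0 in RING1B WT cells, led by Meis1 (2.17), Six3 (fitted 8.43, from no counts) and Reln (4.35). Upstream BMP, endothelin, FGF, WNT and hedgehog signals gave 8 of 17 in Parental and 7 in RING1B I53S cells, with Wnt5a (4.96), Fgfr2 (3.27) and Wnt3a (fitted 8.08, from no counts) in front, whereas Bmp4 (0.05, SE 0.24) and Smad1 (0.26, SE 0.33) did not pass. Skeletal, tooth, placode and epidermal genes gave 5 of 14, led by Gata3 (6.70), Gata2 (2.97) and Lmx1b (5.25). Runx2, the regulator of osteoblast fate, was among them (4.19). In Eed fl/fl cells none of these genes was called.

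Markers of other cell types moved in the same libraries. All 6 primitive endoderm markers were called higher in Parental and in RING1B I53S cells, and their summed level went from 3.09 to 3.50 CPM in −OHT to 48.7 to 50.4 CPM in +OHT Parental cells, from 4.60 to 4.71 to 38.4 to 39.1 CPM in RING1B I53S cells and from 3.73 to 4.60 to 8.96 to 12.8 CPM in RING1B WT cells. Trophoblast markers gave 4 of 6 tested in Parental and 3 in RING1B I53S cells, mesoderm markers 3 and 2 of 4 and fibroblast markers 2 and 1 of 3, against 15.1% and 12.8% of all genes. Neural markers gave 1 higher (Pax6) and 1 lower (Tubb3) of 2 in Parental cells. Dcn was at 0 in both Parental groups. Among ESC markers Zfp42 (−2.03) and Sox2 (−1.97) were called lower in Parental cells and Zfp42 (−1.78) in RING1B I53S cells, and none of the 8 in RING1B WT cells. The part of these cell type markers in the rise of the Dlx and Msx genes was not tested.

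Over the 12 libraries, the genes whose log2 CPM followed the mean of the 8 most closely were Lamb1 (Pearson r = 0.9934), Rhox6 (0.9933), Adra2b (0.9931), Gcnt1 (0.9922) and Slc7a8 (0.9915). Such closeness was common: 587 of 18146 genes reached 0.95, and all share the contrast between Parental and RING1B I53S +OHT libraries and the rest. By rank correlation only Rhox6 stayed among the closest 5. Within the family Dlx6 followed the mean of the 8 best (0.9924) and Dlx2 least (0.8802).

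Before OHT the chromatin of the 8 genes carried peaks of nearly every factor profiled. Peaks were called in each library on its own, with scores given as −log10 p, and each group had 1 library, apart from the 72 h lists of MTF2 and JARID2, of which both +OHT derivatives had 2. There was therefore no test between groups, and the depth behind the peaks is unknown. In Parental −OHT cells all 8 genes had a peak of RING1B, PCGF2, CBX7, PCGF6, H2AK119ub1, H3K27me3, SUZ12, EPOP, MTF2, JARID2 and AEBP2, and 5 of 8 had one of RYBP. The same held in RING1B WT +OHT cells, with 7 of 8 for RYBP, all but Msx2. For scale, a RING1B peak lay within 2.5 kb of 19.5% of 21881 protein coding genes in Parental −OHT cells. A factor such as AEBP2 was far less widespread, at 4.6% of all coding genes and 30.1% of the 3292 genes with a RING1B peak in RING1B WT +OHT cells, yet marked all 8. The share of the 3292 genes with a peak in Parental −OHT cells was 93% for RING1B, 87.8% for PCGF2, 86.7% for CBX7, 77.2% for PCGF6, 48.2% for RYBP, 85.7% for H2AK119ub1, 91.8% for H3K27me3, 93.7% for SUZ12, 91.1% for EPOP, 98.5% for MTF2 and 94.1% for JARID2. In RING1B WT +OHT cells it was 81.2% for PCGF2, 64.3% for CBX7, 89.1% for PCGF6, 27% for RYBP, 89.6% for H2AK119ub1, 90% for H3K27me3, 91.8% for SUZ12, 91.5% for EPOP, 31.8% for AEBP2, 93.1% and 91.4% for the MTF2 replicates and 88.7% and 87.5% for those of JARID2, and the RING1B list that defines these genes marked 15% of all coding genes. For most factors the 8 genes were thus marked like the bulk of RING1B targets, and the distance from this background was widest for AEBP2 and, in RING1B WT +OHT cells, for RYBP. These shares rise with gene length and are a description. The RYBP peaks of RING1B WT +OHT cells scored 10.2 to 16.9, close to the minimum of 10, and the AEBP2 peaks of Parental −OHT cells 15.8 to 39.6. The distance of these 2 factors from the background therefore rests on weak peaks.

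Peaks over the genes were broad. Coverage, the share of the gene body plus 2.5 kb on each side that lay under peaks, had medians over the 8 genes of 98.4% for MTF2, 94.4% for JARID2, 92.4% for H3K27me3, 84.1% for H2AK119ub1, 81.2% for CBX7, 78.0% for SUZ12 and 59.2% for RING1B in Parental −OHT cells. The median length under H3K27me3 peaks there was 9007 bp for the 8 genes and 5035 bp for the 3292 genes. Under RING1B peaks it was 6082 and 1967 bp. Such lengths also depend on gene length. PCGF6 (12.5%) and RYBP (6.1%, with no peak at Dlx1, Dlx2 and Dlx5) covered less of the windows in the same cells. In RING1B WT +OHT cells the median for PCGF6 was 41.5%. Single peaks joined neighbouring members 14 times. The longest was an MTF2 peak of 30318 bp across Dlx6 and Dlx5 (chr6:6853936-6884253), and a JARID2 peak of 22359 bp ran across Dlx1 and Dlx2 (chr2:71525206-71547564). Dlx1 and Dlx2, and Dlx6 and Dlx5, therefore share part of their peak evidence, whereas no single peak ran from the body of Dlx3 to that of Dlx4. Msx1 was the most densely covered gene, with 94.1% for RING1B and 100.0% for PCGF2 and CBX7. The 4 inputs with a peak list, all H3K27me3 inputs of MTF2 KO cells, had no peak at any of the 8. Each had one at 0.213% of the 3292 genes. They are no direct control for the lists of cells with MTF2.

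**Figure D3:**
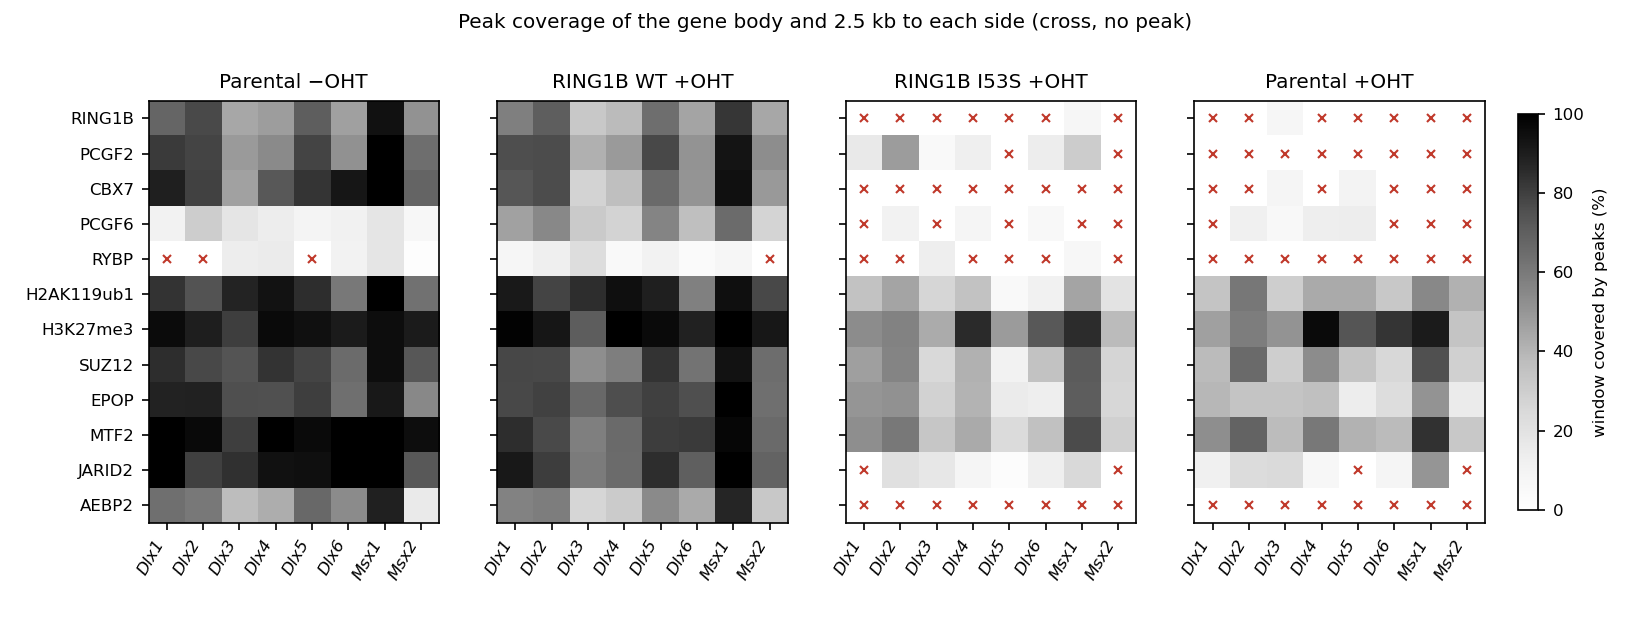
Share of the window of each gene (gene body and 2.5 kb on each side, in percent, white 0 to black 100) covered by peaks of 12 antibodies in 4 conditions at 72 h, with a cross where no peak was called; MTF2 and JARID2 values in RING1B WT and RING1B I53S +OHT cells are means of 2 libraries. RING1B, CBX7, RYBP and AEBP2 have a peak at no more than 2 of the 8 genes in the RING1B I53S +OHT and Parental +OHT panels, while the H2AK119ub1, H3K27me3, SUZ12, EPOP and MTF2 rows keep all 8 at lower median coverage.

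PRC1 peaks disappeared from the genes after OHT in Parental cells. RING1B was left at 1 of 8, Dlx3, with a score of 10.5 close to the minimum of 10, CBX7 at 2 (Dlx3 and Dlx5), PCGF6 at 4 (Dlx2, Dlx3, Dlx4 and Dlx5), and PCGF2 and RYBP at none. The RYBP list was placed in this group by its title, which is written differently from the other titles of the group, so its assignment is less sure than theirs. Among the 3292 genes with a RING1B peak in RING1B WT +OHT cells the shares were 7.93%, 1.61%, 43.7%, 1% and 0.82%. In RING1B I53S +OHT cells RING1B was listed at 1 of 8, Msx1 (score 14.7), CBX7 at none, PCGF6 at 3, RYBP at 2 (Dlx3 and Msx1) and PCGF2 at 6, all but Dlx5 and Msx2, against 16.5%, 0.942%, 31.9%, 15.8% and 15.3% of the same 3292 genes. The PCGF2 peaks were small beside those of RING1B WT +OHT cells, with a median coverage of 13.4% against 64.3% and scores of 10.4 to 36.6 against 125.0 to 307.9. Dlx2 (48%) and Msx1 (30.6%) kept the most PCGF2.

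Lists of both histone marks still held peaks at the genes after OHT, but smaller ones. H3K27me3 peaks stayed at all 8 genes, and their median coverage was 66.2% in Parental +OHT and 55.2% in RING1B I53S +OHT cells against 94.3% in RING1B WT +OHT cells. Dlx4 kept 96.3% in Parental and 85.8% in RING1B I53S +OHT cells and Msx1 90.4% and 85.4%, while Msx2 kept 34.0% and 38.1%. An H3K27me3 peak was listed at 80.8% and 65.2% of the 3292 genes in these 2 conditions. The median length under H3K27me3 peaks was 6016 and 5284 bp for the 8 genes there, against 9083 bp in RING1B WT +OHT cells. For the 3292 genes it was 2864 and 1491 bp against 4822 bp, so coverage fell at RING1B targets at large as well. In RING1B I53S +OHT cells no H3K27me3 peak touched the promoter window of Dlx1, Dlx2, Msx1 or Msx2. In Parental +OHT cells 1 touched that of Dlx1 and none the other 3. All 4 promoters lay under H3K27me3 peaks in Parental −OHT and RING1B WT +OHT cells. The promoter windows are far shorter than the gene windows, and a smaller peak misses them more easily. The extent of loss therefore cannot be compared between the kinds of window. The share of all promoters, or of those of the 3292 genes, touched by an H3K27me3 peak was not computed. H2AK119ub1 peaks were listed at all 8 genes too, with median coverage of 42.3% in Parental and 30.7% in RING1B I53S +OHT cells against 84.1% in Parental −OHT cells. These lists do not carry the Drosophila spike-in of the histone ChIPs, so a listed peak gives no amount of the mark. The paper, which scaled its histone ChIPs by that spike-in, reported that H2AK119ub1 was completely lost from PRC1 targets in RING1B I53S +OHT cells. The H2AK119ub1 peaks listed here are therefore no sign that the mark was kept. Of the 3292 genes, 74.5% and 52.9% had an H2AK119ub1 peak in these 2 conditions. Dlx5 had the lowest H2AK119ub1 peak coverage in RING1B I53S +OHT cells, 4.3% at a score of 13.1.

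**Figure D4:**
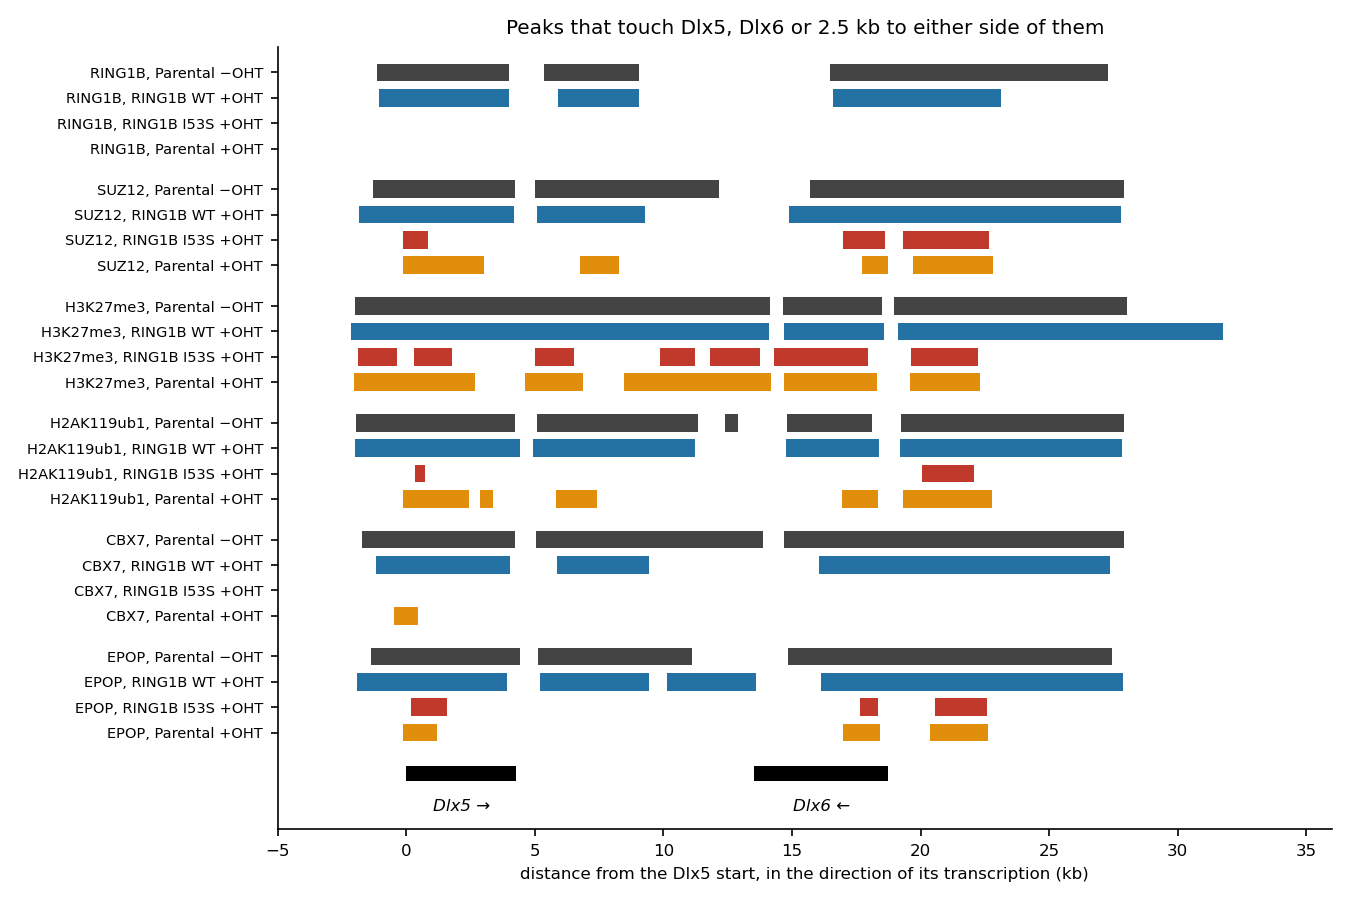
Peaks of 6 antibodies in 4 conditions over the Dlx5/Dlx6 pair, placed by distance from the Dlx5 start in kb, with the gene bodies as black bars and arrows for their direction. RING1B, CBX7, SUZ12 and EPOP peaks cover the pair in Parental −OHT and RING1B WT +OHT cells, and after OHT in Parental and RING1B I53S cells no RING1B peak and at most 1 short CBX7 peak is left, beside shorter SUZ12, EPOP, H2AK119ub1 and H3K27me3 peaks.

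The peak lists of PRC2 subunits differed in what was left at the genes. SUZ12, EPOP and MTF2 kept a peak at all 8 genes in both Parental and RING1B I53S +OHT cells, where the shares of the 3292 genes were 86.1% and 64.5% for SUZ12, 56.1% and 54.4% for EPOP, and 87.6% and, in the 2 replicates of the mutant, 58.7% and 85.2% for MTF2. SUZ12 coverage had a median of 36.1% and 38.0% there against 71.0% in RING1B WT +OHT cells, and its median score 59.5 and 35.1 against 352.1. The median length under SUZ12 peaks over the 3292 genes fell too, to 1501 and 780 bp against 2336 bp. AEBP2 peaks were lost from all 8 in both conditions, where just 14 and 50 AEBP2 peaks were listed genome-wide against 1475 in RING1B WT +OHT cells, and 0.243% and 0.638% of the 3292 genes had one. AEBP2 scores were low from the start, with medians of 31.1 in Parental −OHT and 40.1 in RING1B WT +OHT cells against a minimum of 10. The median score of MTF2 in Parental −OHT cells was 2342. The loss of AEBP2 peaks therefore cannot be set against the peaks kept by MTF2, SUZ12 or EPOP. JARID2 was intermediate. It kept all 8 at 48 h in both lines, against 68.5% and 27.5% of the 3292 genes, and 6 of 8 at 72 h in Parental cells (not Dlx5 and Msx2), against 35.3% of the 3292 genes. In RING1B I53S cells the 2 replicates at 72 h kept 6 of 8 (not Dlx1 and Msx2) and 3 of 8 (Dlx3, Dlx6 and Msx1), against 28.3% and 11.5%, so the number depends on the replicate.

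The decline of MTF2 and JARID2 was seen at both times of OHT. Median MTF2 coverage of the 8 genes in Parental cells was 98.4% without OHT, 70.8% at 48 h and 46.8% at 72 h, and for JARID2 it was 94.4%, 31.0% and 10.2%. The median coverage of JARID2 was therefore below that of MTF2 at both times. Over the 3292 genes the median length under peaks in Parental cells also fell. It went from 5041 bp to 2449 and 1858 bp for MTF2 and from 4378 bp to 1084 and 0 bp for JARID2. Scores moved with coverage, from a median of 2342 to 149.5 and 62.6 for MTF2 and from 2536 to 43.5 and 19.5 for JARID2, but scores also depend on the reads of each library. In RING1B I53S cells MTF2 went from 85.2% to 65.2% at 48 h and to 29.6% and 49.9% in the 2 replicates at 72 h, and JARID2 from 85.1% to 29.1% and then 17.5% and 0%. In RING1B WT cells MTF2 went from 93.1% to 85.0% and then 76.8% and 78.8%, and JARID2 from 87.2% to 80.4% and then 74.4% and 84.1%. All 8 genes had a peak of both factors in the −OHT and 48 h lists, against 95.1% (MTF2) and 89.9% (JARID2) of the 3292 genes in RING1B WT −OHT cells, 94.1% and 88.2% in RING1B I53S −OHT cells and 93.6% and 87.5% in RING1B WT cells at 48 h, and for MTF2 at 48 h against 91.8% in Parental and 90.5% in RING1B I53S cells. Msx1 kept the highest coverage of both factors in Parental cells at 72 h (83.8% and 50.1%).

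**Figure D5:**
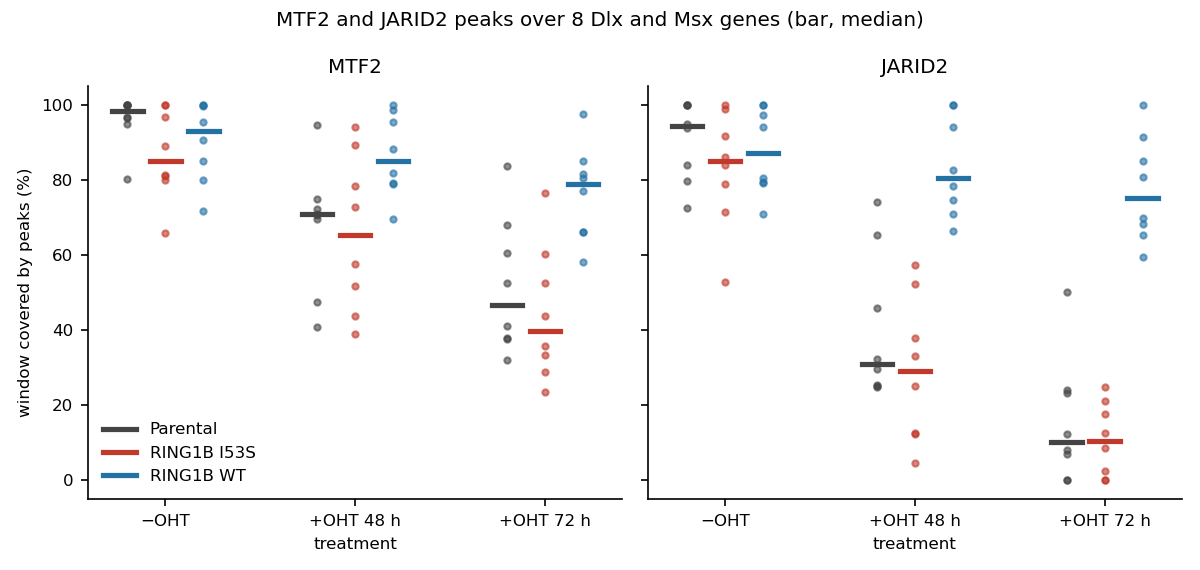
Share of the gene window covered by MTF2 peaks (left) and JARID2 peaks (right) in percent, without OHT and after 48 h and 72 h of OHT, with 1 point for each of the 8 genes (mean of 2 libraries for both derivatives at 72 h) and a bar for the median over the genes. Medians in Parental cells fall from 98.4% to 46.8% for MTF2 and from 94.4% to 10.2% for JARID2, while those of RING1B WT cells at 48 h are 85.0% and 80.4%.

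Without MTF2 the remaining SUZ12 and H3K27me3 peaks at these genes differed between conditions, also within the Parental line. In MTF2 KO cells SUZ12 had a peak at all 8 genes in Parental −OHT cells (median coverage 79.1%) and in RING1B WT +OHT cells (80.7%), against 63.8% and 68.5% of the 3292 genes. In Parental MTF2 KO +OHT cells it was left at 3 of 8, Dlx3, Dlx4 and Dlx6, with scores of 11.1 to 12.7, and in RING1B I53S MTF2 KO +OHT cells at 1, Dlx3 (score 12.5), against 20% and 6.56% of the 3292 genes. H3K27me3 had peaks at 8 of 8 in Parental −OHT (57.2%) and RING1B WT +OHT (54.3%), against 55.8% and 42.2% of the 3292 genes, at 1 of 8 in Parental +OHT, Dlx4 (8.4%, score 13.7), and at none in RING1B I53S +OHT MTF2 KO cells, against 4.98% and 11.1% of the 3292 genes. With MTF2 present, all 8 had both peaks in the same 2 conditions. Each of these groups is 1 library of 1 clone.

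Over all 70 ChIP libraries Dlx3 had a peak in 61, Dlx4 in 58, Dlx6 and Msx1 in 57, Dlx2 in 55, Dlx5 in 53, Dlx1 in 52 and Msx2 in 50. Dlx3, with the most lists, was also the member with the highest RNA level after OHT and a called increase in RING1B WT cells, whereas Dlx5, the other gene called there, was among those with fewer lists. With 8 genes, the Dlx genes among them in linked pairs, no correlation between peaks and RNA was computed.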

How the data were processed

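RNA counts per gene were deposited by the authors as raw counts of 16 libraries, made with STAR 2.7 and featureCounts on mm10 without use of strand. Peaks were deposited by the authors for each library on its own, called with MACS2 2.1.1 on Bowtie 1.2.2 alignments against an input, with scores as −log10 of the p-value and none below 10. Normalized count tables were not used, nor were the authors' comparison tables, which hold log2 fold changes and adjusted p-values. Counts of the 12 libraries of the Parental line and its RING1B derivatives were fitted together in edgeR 4.0.16 (R 4.3.3) with filterByExpr, TMM scaling and the quasi-likelihood test without a replicate term, and the 4 Eed fl/fl libraries on their own, with Benjamini-Hochberg adjustment over all genes tested. CPM used the TMM library sizes, and SEs were derived from the quasi-likelihood F statistic, with 95% intervals from its t distribution. Intervals of count ratios and the floor of 3 counts cover counting error only. The replicates of a group differed by more than sampling noise. Positions and exon lengths came from the annotation of the mm10 genome, promoters from RefSeq.

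The 8 genes, the gene lists and the markers were chosen with earlier results of these data known. All 8 were named, with the 3 genes of lowest adjusted p in Parental cells from each list, the 5 genes most correlated with the mean of the 8 (log2 CPM with a prior count of 2), the deleted genes and the neighbouring genes. Foxd3, Bmp4, Smad1 and Runx2 were named after their values were seen. Alternatives covered DESeq2 1.42.0, limma 3.58.1 for the Eed fl/fl libraries, scaling, filters, a replicate block, 2-group fits, single libraries left out, other peak windows, a peak score of at least 20 and other gene lengths. The length without shared exons was added after seeing the data. The fits were tested on simulated data. Same-numbered replicates did not meet the criterion for pairing, and 48 h was taken from sample titles where the labels give 72 h.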

Additional observations from a re-analysis of the deposited data

How the results depend on the processing

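The increase of the Dlx and Msx genes with OHT in Parental and RING1B I53S cells was called for all 8 under DESeq2, RLE scaling, no filter, the FDR alone and the replicate block, and for 7 to 8 with 1 library left out. In RING1B WT cells it was called for 0 to 2 with 1 library left out and for 1 when its 2 groups were fitted alone, where 3 of the 8 could be tested, and in RING1B I53S cells for 7 in such a fit. Between RING1B WT and Parental +OHT cells 4 to 6 were called with 1 library left out, and between RING1B I53S and RING1B WT +OHT cells 2 to 5. The difference of the OHT effect between RING1B WT and Parental cells was called for 1 of 8 by DESeq2 and for 2 without a filter. With at least 10 counts in every library only 1 member, Msx2, could be tested, and the calls were 1 in Parental, 1 in RING1B I53S and 0 in RING1B WT cells, 1 between RING1B WT and Parental +OHT cells and 1 between RING1B I53S and RING1B WT +OHT cells, since fewer genes were tested. Of 540 values for single members under alternatives, 488 kept direction and side of the threshold, 33 lost and 5 gained the call and 14 changed sign, 13 of these with a library left out.

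With 1 library left out, the log2 fold change with OHT in RING1B WT cells ranged from −0.10 to 4.62 for Dlx1 and from −1.89 to 3.92 for Dlx2, that between RING1B I53S and Parental +OHT cells from −0.32 to 0.71 for Dlx1, and that in Eed fl/fl cells from −2.06 to 1.2 for Dlx1, −3.60 to 2.13 for Dlx2, −1.59 to 0.33 for Dlx4, −4.12 to 0.48 for Msx1 and −0.76 to 0.20 for Msx2. By limma Dlx1 was at −0.00678 in Eed fl/fl cells. The cause was not tested.

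Over all genes, calls with OHT numbered 3081 in Parental, 2511 in RING1B I53S and 251 in RING1B WT cells, and 6228, 4856 and 402 by the FDR alone, or 1009, 720 and 83 with at least 10 counts in every library. RING1B WT cells gave 483 without a filter, 152 fitted alone and 25 to 261 with 1 library left out. RING1B WT against Parental +OHT cells gave 1576, 3290 by the FDR alone, 384 with the strict filter and 703 to 1152 with 1 library left out, and RING1B I53S against RING1B WT +OHT cells 1201, 2409, 308 and 413 to 1050. RING1B I53S against Parental cells gave 29 with OHT (51 without a filter, 55 by the FDR alone, 11 with the strict filter, 8 to 42 with 1 library left out) and 28 without OHT (54, 55, 18 and 11 to 23). RING1B WT against Parental −OHT cells gave 11 (28 without a filter, 7 with the strict one), and the difference of the OHT effect between these lines 279 (496, 179 and 88 to 277 with 1 library left out). Eed fl/fl cells gave 2 (38 by DESeq2, 6 with RLE, 1 without a filter, 21 with the strict filter, 0 by limma, 23 to 262 with 1 library left out).

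Same-numbered replicates were compared across groups: 9 of 15 correlations of their deviations exceeded 0.1 (range −0.0033 to 0.3007), with 0.2276 to 0.3007 among −OHT groups and 0.1344 to 0.1814 among +OHT groups, and the Eed fl/fl groups gave 0.4585. Pairing was taken as shown only if every correlation exceeded 0.1 over at least 3 pairs, which these values do not meet, and it cannot be dismissed from them. With the replicate block the calls were 8 in Parental, 8 in RING1B I53S, 2 in RING1B WT and 0 in Eed fl/fl cells, 8 between RING1B WT and Parental and 5 between RING1B I53S and RING1B WT +OHT cells, as without it. Over all genes it moved the calls in Eed fl/fl cells from 2 to 161.

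Peak scores of at least 20 lowered the number of the 8 genes with a peak in Parental +OHT cells to 1 for CBX7, 0 for RING1B, 2 for PCGF6 and 2 for JARID2 at 72 h, and in RING1B I53S +OHT cells to 5 for EPOP, 4 for H2AK119ub1, 3 for PCGF2, 1 for PCGF6, 0 for RING1B, 0 for RYBP, 5 for JARID2 at 48 h and 3 and 0 for its replicates at 72 h. In Parental −OHT cells it left 5 for PCGF6 and 1 for RYBP, and 0 for RYBP in RING1B WT +OHT cells. In MTF2 KO cells it left H3K27me3 at 2 (Parental −OHT), 0 (Parental +OHT) and 3 (RING1B WT +OHT) and SUZ12 at 0 in both Parental and RING1B I53S +OHT cells. Within 2.5 kb of a start site alone, H3K27me3 in Parental MTF2 KO +OHT cells and RING1B in Parental +OHT cells were at 0. Over the gene body alone, RING1B was at 0 and RYBP at 1 in RING1B I53S +OHT cells, and within 5 kb H3K27me3 was at 1 in RING1B I53S MTF2 KO +OHT cells. These alternatives were counted for the 8 genes alone, so how far other RING1B targets fall under them is not known. Depth of the ChIP libraries is unknown.

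Per kb of the longest transcript, Parental +OHT levels were 0.883 for Dlx2, 2.78 for Dlx4, 6.25 for Dlx5, 5.43 for Msx1 and 7.38 CPM for Msx2, and without shared exons Dlx4 was at 1.99.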

Other observations

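The peak lists differed in strength between lines without OHT. Over the 8 genes the median score of MTF2 peaks was 2342 in Parental −OHT cells, 680.0 in RING1B WT −OHT cells and 557.1 in RING1B I53S −OHT cells, and that of JARID2 peaks 2536, 910.8 and 762.4, while median coverage was 98.4%, 93.1% and 85.2% for MTF2. PCGF6 covered a median of 12.5% of the windows in Parental −OHT cells and 41.5% in RING1B WT +OHT cells, with all 8 genes marked in both. Each value comes from 1 library.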
